A study of Mus musculus with 6 samples.

Results

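The genes described here encode the motor, spoke and accessory parts of the sperm tail: axonemal dynein heavy, intermediate and light chains, tektins, radial spoke proteins, central apparatus proteins and outer dense fibre proteins. Members were the genes whose array symbol starts with Dnah, Dnaic, Dnal, Dnaaf, Tekt, Rsph, Odf or Tcte, together with Spag6, Spag16 and Spag17. The rule found 44 of the 23152 genes on the array, measured by 1108 of 233753 probe sets that carry 1 gene symbol. Each gene had 4 to 79 probe sets, with a median of 11. For 14 of them the array table gives an older symbol (Dnahc for Dnah, Dnalc for Dnal), which is kept here.

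The axoneme is the microtubule core of cilia and flagella, a ring of outer doublets around a central pair. Dynein arms on the doublets slide one doublet along the next, and radial spokes and the central apparatus pattern that sliding into a beat. Tektins form filaments associated with the doublet wall, and the outer dense fibres are stiff rods that run outside the doublets in mammalian sperm. Germ cells switch on many axonemal genes during meiosis, and the dense fibre genes mainly in spermatids.

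RNA came from germ cells that were freed enzymatically from testes of FVB mice aged 22 days, 1 mouse for each array. The control group held 3 mice with floxed Mgat1 alleles and no Cre. The mutant group (Mgat1 cKO) held 3 mice with the same floxed alleles plus Stra8-iCre, a transgene active from spermatogonia onward, so that Mgat1 is deleted in germ cells while any somatic cells in the preparation keep the gene. Mgat1 encodes GlcNAcT-I, the enzyme that begins the synthesis of complex N-glycans. The sources used here name no litters. Signals are log2 RMA values, in which a difference of 1 is a doubling, and each gene is represented on an array by the mean of its probe sets. A gene was called raised or lowered in cKO at an adjusted p under 0.05 (limma, 2-sided, Benjamini-Hochberg over all 23152 genes). Errors given with means are SD over 3 mice, and errors given with fold changes are standard errors from limma.

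Gene values correlated at 0.992 to 0.994 between arrays of 1 genotype and at 0.950 to 0.970 between genotypes. The median log2 fold change of all genes was -0.02 and the median standard error was 0.11. The targeted gene gave log2 signals of 6.91, 7.00 and 6.82 in controls and 6.87, 6.69 and 6.80 in cKO. These groups overlapped, the difference was -0.13 ± 0.10 (adjusted p = 0.356), and 0 of its 12 probe sets were called, so this signal gave no check of the genotype labels, and other assays of the deletion were not analysed here. The sources used here do not say which of its probe sets lie within the floxed segment.

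Of the 44 genes, 15 were raised in cKO (34.1%), 2 were lowered (4.55%) and 27 were not called. Over all genes, 13.3% were raised and 18.4% were lowered. The members were brighter than the array as a whole. Of the 44, 37 had a control signal at or above that of the median gene. The mean control signal was 9.33 for the members and 7.01 for all genes. Shares over genes of like signal were not computed. The counts of called members moved with the processing. A variance model with a signal trend gave 16 raised and 9 lowered members (36.4% and 20.5%, against 13.9% and 20.1% of all genes), and the brightest probe set as gene value gave 8 raised and 1 lowered (18.2% and 2.27%, against 10% and 9.48%). The 3 cKO values all lay above the 3 control values for 19 members and all below them for 10, against 20.1% and 26.6% of all genes. The median log2 fold change of the members was 0.14, and 29 of the 44 were higher in cKO (65.9%, against 46.6% of all genes). Calls were unevenly placed among the structures: all 5 tektins and 5 of 8 genes of the outer dense fibre and Odf3 families were raised, while 2 of the 12 dynein heavy chains were raised and 1 was lowered. They also differed by signal. Of 24 members with a control signal under 10, 13 were raised and 1 was lowered (median 0.38). Of 20 members at or above 10, 2 were raised and 1 was lowered (median -0.09). Structure and signal level were not separated. In bulk samples, a larger share of the cells that carry a transcript and more of that RNA in each cell cannot be told apart.

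**Figure D1:**
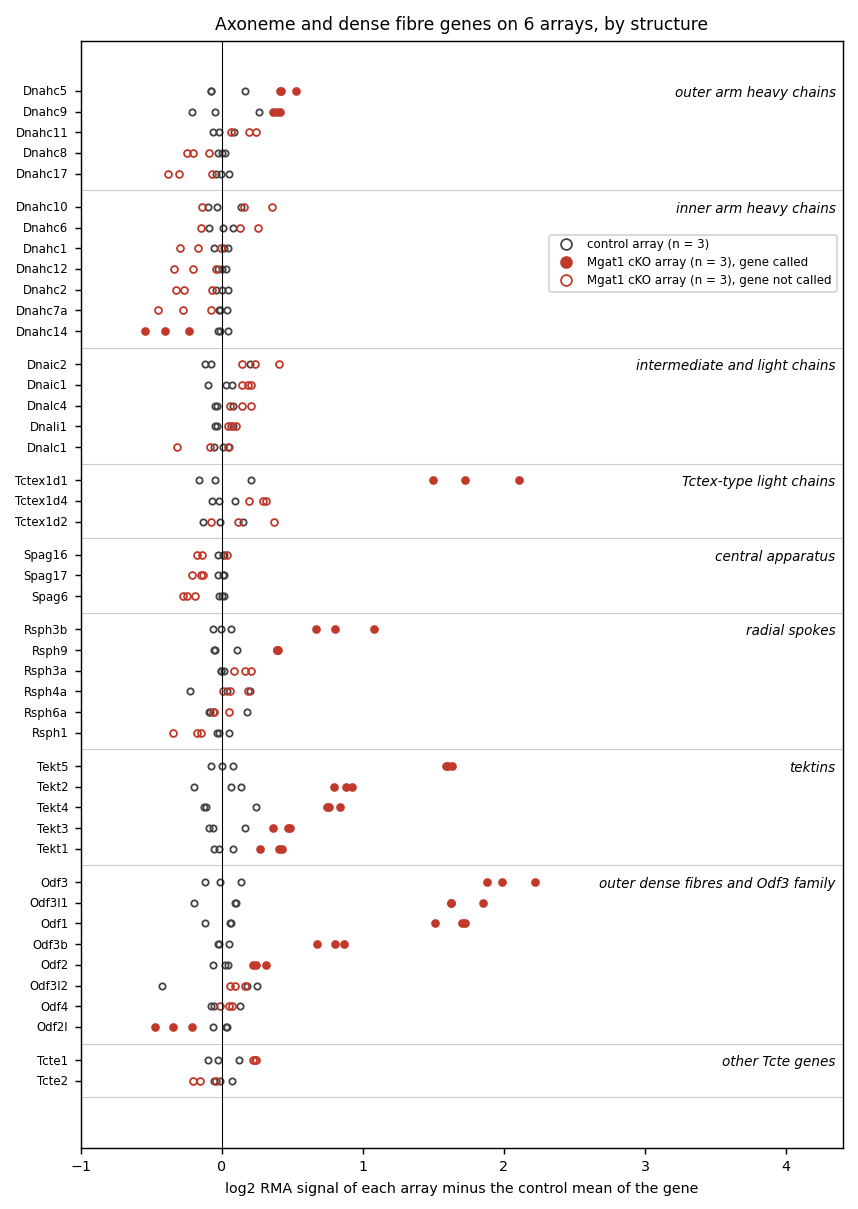
Log2 RMA signal of each of 6 arrays minus the control mean, for the 44 genes grouped by structure. Open grey circles are control mice, and red circles are Mgat1 cKO mice, filled where limma called the gene. Filled circles lie far to the right for Tctex1d1, Tekt5, Odf1, Odf3 and Odf3l1, while most heavy chain circles lie within 0.5 of the control mean.

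Sequence just upstream of these genes was examined for all members with a matched window, whether called or not. RefSeq promoter windows (build GRCm38.p6), which span 250 bases before to 50 bases after a transcription start, were matched to 39 of the 44 members in 47 windows. The core motif GTTGCC bound by RFX factors, regulators of ciliary genes, was present on either strand in at least 1 window of 13 of the 39 genes (33.3%), against 14.1% of 27025 genes with a window. By windows, it was in 15 of 47 (31.9%) and in 12.5% of all 32851. Some windows of a gene overlap, and the same copies in Tekt2 were counted in 2 windows. By genes, the core motif occurred in 7 of 14 raised, 0 of 2 lowered and 6 of 23 uncalled members. The full palindromic X-box in its perfect form was in 0 member windows and in 0.0183% of all windows. The cyclic AMP response element TGACGTCA was in 1 member window (2.13%, against 1.79% of all), that of Dnahc6, and the forkhead motif TGTTTAC in 2 (4.26%, against 3.65% of all), those of Dnahc17 and Tekt3. A match of letters is a description and does not show a bound site. Windows are shown for 3 strongly raised genes that hold the core motif and for Spag16, which holds it on both strands and was not called. They read 5′ to 3′ on the strand of the gene, with GTTGCC or its reverse complement GGCAAC in capitals.
Odf3, chr7:140847666-140847965, plus strand: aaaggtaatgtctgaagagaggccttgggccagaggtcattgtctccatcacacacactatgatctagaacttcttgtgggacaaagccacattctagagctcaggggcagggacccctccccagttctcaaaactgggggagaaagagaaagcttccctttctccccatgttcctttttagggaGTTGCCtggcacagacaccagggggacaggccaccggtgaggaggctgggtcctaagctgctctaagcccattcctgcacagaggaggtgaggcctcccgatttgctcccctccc
Tctex1d1, chr4:102978453-102978752, plus strand: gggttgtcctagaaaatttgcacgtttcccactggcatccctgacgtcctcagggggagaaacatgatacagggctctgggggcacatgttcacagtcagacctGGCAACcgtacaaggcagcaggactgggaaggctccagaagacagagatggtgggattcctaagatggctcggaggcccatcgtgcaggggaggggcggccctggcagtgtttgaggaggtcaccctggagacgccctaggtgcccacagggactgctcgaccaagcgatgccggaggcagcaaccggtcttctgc
Tekt2, chr4:126325597-126325896, minus strand: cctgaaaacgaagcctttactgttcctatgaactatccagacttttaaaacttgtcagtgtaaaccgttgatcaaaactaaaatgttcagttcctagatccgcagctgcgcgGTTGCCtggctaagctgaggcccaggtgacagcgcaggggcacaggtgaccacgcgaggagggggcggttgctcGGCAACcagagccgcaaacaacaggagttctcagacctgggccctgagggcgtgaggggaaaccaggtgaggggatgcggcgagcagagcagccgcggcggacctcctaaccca
Spag16, chr1:69826720-69827019, plus strand: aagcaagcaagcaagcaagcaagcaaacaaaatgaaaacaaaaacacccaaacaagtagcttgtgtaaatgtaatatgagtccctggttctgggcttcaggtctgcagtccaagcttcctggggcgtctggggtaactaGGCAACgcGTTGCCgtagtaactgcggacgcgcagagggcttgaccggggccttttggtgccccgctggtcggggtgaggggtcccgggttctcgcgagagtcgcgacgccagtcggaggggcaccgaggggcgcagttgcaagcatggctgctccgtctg
The core motif begins 65 bases before the start of Odf3 and 146 bases before that of Tctex1d1. In this window of Tekt2 the copies begin 138 and 64 bases before the start, and in Spag16 they begin 111 and 103 bases before it. The window of Tekt5, another strongly raised gene, holds none of these letters.

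The outer dynein arm heavy chains are large motor proteins, and the array measures 5 of them. Dnahc8 (Dnah8), the sperm tail counterpart of the ciliary Dnah5, gave log2 signals of 12.69, 12.64 and 12.67 in controls and 12.46, 12.58 and 12.42 in cKO. All 3 cKO values were below the controls, but the fall of 0.18 ± 0.09 did not pass the threshold (log2 fold change -0.18, adjusted p = 0.153, limma). Of 17 alternative settings, the fall was called in 1 and the sign was opposite in 1. Dnahc17 (Dnah17), the sperm tail counterpart of Dnah9 and Dnah11, gave 10.80, 10.77 and 10.86 in controls and 10.51, 10.75 and 10.43 in cKO, again without overlap and without a call (log2 fold change -0.25 ± 0.10, adjusted p = 0.0952). Without cKO replicate 2, the mouse closest to the controls, the log2 fold change of Dnahc17 was -0.35 with an adjusted p of 0.0450. That was 1 of 2 alternative settings, of 17, in which Dnahc17 was called.

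The 3 heavy chains known from motile cilia of airway and node had control means under the median gene, which stood at 6.80. Dnahc5 (Dnah5) gave 5.66, 5.42 and 5.42 in controls and 5.92, 6.02 and 5.91 in cKO, and was called raised (log2 fold change 0.45 ± 0.10, adjusted p = 0.00858). Its call was lost in 3 of 17 alternative settings. With the dimmest 50% of probe sets left out, the log2 fold change was 0.26 with an adjusted p of 0.201. Dnahc9 (Dnah9) gave 5.96, 5.48 and 5.65 in controls and 6.11, 6.06 and 6.09 in cKO (log2 fold change 0.39 ± 0.12, adjusted p = 0.0379), a call that was lost when any 1 array other than control replicate 1 was left out (adjusted p from 0.0787 to 0.124). Dnahc11 (Dnah11) gave 5.41, 5.30 and 5.26 in controls and 5.56, 5.39 and 5.51 in cKO, with overlapping groups and no call (log2 fold change 0.17 ± 0.09, adjusted p = 0.209). Of 17 alternative settings, 1 called Dnahc11 raised.

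Inner arm heavy chains, the motors that shape the bend of the beat, were represented by 7 genes, of which 0 were raised and 1 was lowered, with a median log2 fold change of -0.20. The lowered gene was Dnahc14 (Dnah14). It gave log2 signals of 11.08, 11.01 and 11.03 in controls and 10.64, 10.81 and 10.49 in cKO, with no overlap (log2 fold change -0.40 ± 0.10, adjusted p = 0.0168). The shift ran along the whole gene, since all 76 of its probe sets were lower in cKO, although only 1 of them was called by itself. Without cKO replicate 3, the lowest of the mutants, the value was -0.32 with an adjusted p of 0.0530, and on its brightest probe set alone it was -0.12 with an adjusted p of 0.514. Dnahc7a (log2 fold change -0.27, adjusted p = 0.0904), Dnahc2 (-0.22, 0.115) and Dnahc12 (-0.20, 0.171) had no overlap between groups and were not called. Without cKO replicate 2, the mutant closest to the controls for this gene, Dnahc7a passed the threshold (-0.36, adjusted p = 0.0435). Leaving out any other array gave no call. Dnahc1, a motor needed for sperm motility, gave a log2 fold change of -0.16 (adjusted p = 0.270), Dnahc6 of 0.08 (0.643) and Dnahc10 of 0.12 (0.514), each with overlapping groups.

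None of the 5 intermediate and light chain genes was called, and their log2 fold changes ran from -0.12 for Dnalc1 (Dnal1), an outer arm light chain, to 0.26 for Dnaic2, an outer arm intermediate chain. Adjusted p-values were 0.123 for Dnaic2, 0.164 for Dnaic1, 0.297 for Dnalc4 (Dnal4), 0.590 for Dnali1 and 0.444 for Dnalc1. Only Dnaic1, the other outer arm intermediate chain, had cKO values of 10.91, 10.97 and 10.94 wholly above its control values of 10.79, 10.66 and 10.83.

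The symbol rule also took in 3 genes for proteins with a Tctex-type dynein light chain domain. Tctex1d1 gave log2 signals of 6.19, 6.45 and 6.07 in controls and 8.34, 7.96 and 7.73 in cKO. Each mutant was more than 1 log2 unit above every control, and the rise was 3.42-fold (log2 fold change 1.77 ± 0.16, adjusted p = 3.85e-05). On its brightest probe set alone, the log2 fold change of Tctex1d1 was 0.86 (adjusted p = 0.00939). Tctex1d4 had no overlap, with 5.23, 5.18 and 5.35 in controls and 5.57, 5.45 and 5.55 in cKO, and lay nearest above the threshold of all members (log2 fold change 0.27 ± 0.09, adjusted p = 0.0528). Tctex1d2 gave a log2 fold change of 0.14 (adjusted p = 0.460) with overlapping groups.

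The 3 central apparatus genes had lower means in cKO and none was called. Spag6 gave log2 signals of 10.61, 10.63 and 10.65 in controls and 10.39, 10.35 and 10.44 in cKO, without overlap (log2 fold change -0.24 ± 0.08, adjusted p = 0.0580). Spag17 also had no overlap (-0.16, adjusted p = 0.173), whereas the groups of Spag16 overlapped (-0.09, adjusted p = 0.498).

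Among 6 radial spoke genes, 2 were raised and 0 were lowered. Rsph9, a spoke head protein, gave log2 signals of 9.43, 9.44 and 9.59 in controls and 9.88, 9.88 and 9.88 in cKO, above every control (log2 fold change 0.39 ± 0.09, adjusted p = 0.00953). Rsph3b, a spoke stalk protein, gave 8.97, 9.04 and 8.91 in controls and 9.64, 9.78 and 10.05 in cKO (log2 fold change 0.85 ± 0.12, adjusted p = 0.000679). That rise was uneven within the gene. In 1 of its 4 probe sets the log2 fold change was 2.15 (from 6.12, 5.98 and 5.06 in controls to 7.48, 7.89 and 8.23 in cKO), whereas the other 3 gave 0.23, 0.43 and 0.59 and were not called. On its brightest probe set alone, Rsph3b was not called (log2 fold change 0.23, adjusted p = 0.177). Rsph3a, a near copy of Rsph3b for which cross-hybridization was not tested, gave 0.15 (adjusted p = 0.215). Rsph1, a spoke head protein, had lower cKO values in all 10 of its probe sets (log2 fold change -0.22, adjusted p = 0.0995), and neither Rsph6a, the head protein of the sperm tail (-0.02, adjusted p = 0.893), nor Rsph4a, its counterpart in motile cilia (0.08, adjusted p = 0.633), was called.

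All 5 tektins were raised, with a median log2 fold change of 0.78 and no overlap between groups for any of them. Tekt5 gave log2 signals of 8.80, 8.72 and 8.87 in controls and 10.43, 10.39 and 10.40 in cKO, a rise of 3.05-fold (log2 fold change 1.61 ± 0.09, adjusted p = 2.03e-06). Tekt2 gave 9.73, 9.40 and 9.66 in controls and 10.48, 10.52 and 10.39 in cKO, a rise of 1.82-fold (log2 fold change 0.87 ± 0.11, adjusted p = 0.000371). Tekt4 gave 10.69, 10.67 and 11.04 in controls and 11.64, 11.56 and 11.55 in cKO (log2 fold change 0.78 ± 0.12, adjusted p = 0.00101). In all 3 genes the lowest mutant stood above the highest control. The smaller rises were those of Tekt3 (log2 fold change 0.44, adjusted p = 0.0104) and Tekt1 (0.37, adjusted p = 0.0151). Tekt1 fell short of the threshold without control replicate 2 (0.34, adjusted p = 0.0521) or without cKO replicate 2 (0.34, adjusted p = 0.0581).

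The rise of Tekt5 was concentrated in adjacent probe sets. In order of probe set number, the first 5 of its 9 probe sets had log2 fold changes of 0.96, 0.60, 0.49, 0.40 and 0.79, the next 3 had 4.02, 4.04 and 3.25, and the last had -0.07. In the sixth, controls gave 8.00, 7.87 and 8.55 and cKO 12.26, 12.07 and 12.14, so that every mutant was more than 3 log2 units above every control. The fourth gave 11.02, 11.05 and 11.10 in controls and 11.33, 11.47 and 11.56 in cKO, also without overlap but far closer together. Tekt2, by contrast, was raised in 12 of 16 probe sets, with log2 fold changes from 0.11 to 1.41, and all 9 probe sets of Tekt3 lay between 0.31 and 0.52 although none was called by itself. The sources used here give no positions of probe sets in the transcripts, so the exons behind the Tekt5 pattern are unnamed, and no test of unequal change within a gene is reported.

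**Figure D2:**
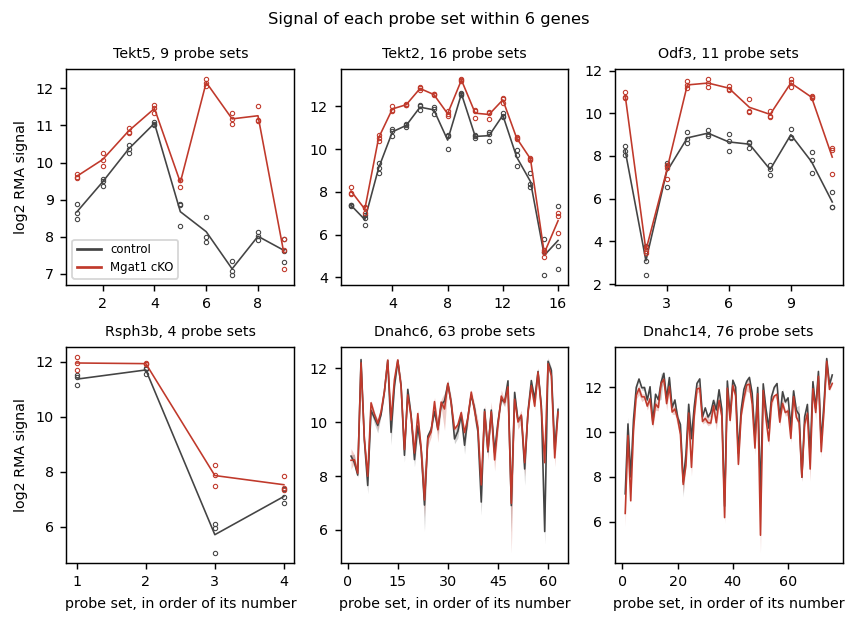
Log2 RMA signal of every probe set of 6 genes, in order of probe set number, for controls (grey) and Mgat1 cKO (red). Lines join group means, points are single mice, and bands span the 3 mice in Dnahc6 and Dnahc14. Probe sets 6 to 8 of Tekt5 separate widely, Tekt2 and Odf3 separate along most of the gene, and in Dnahc14 the red line lies slightly below the grey line throughout.

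The outer dense fibre and Odf3 families held the largest fold change among the members. Odf3, named for the dense fibres and found in the sperm tail, gave log2 signals of 7.74, 7.48 and 7.59 in controls and 9.82, 9.48 and 9.59 in cKO, a rise of 4.08-fold (log2 fold change 2.03 ± 0.12, adjusted p = 2.62e-06). Odf3l1, of the same family, gave 9.39, 9.09 and 9.38 in controls and 11.14, 10.91 and 10.91 in cKO, a rise of 3.25-fold (log2 fold change 1.70 ± 0.12, adjusted p = 6.11e-06). Odf1, a main structural protein of the fibres with a small heat shock protein domain, gave 9.21, 9.02 and 9.20 in controls and 10.84, 10.86 and 10.65 in cKO, a rise of 3.13-fold (log2 fold change 1.65 ± 0.10, adjusted p = 3.67e-06). The gap between the groups was several times the spread within them for each of the 3 genes. At the level of probe sets, 9 of 11 were raised in Odf3, 5 of 6 in Odf3l1 and 3 of 4 in Odf1.

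Odf3b, also of the Odf3 family, was raised by less (log2 fold change 0.78 ± 0.09, adjusted p = 0.000246). Odf2, a dense fibre protein that also builds centriole appendages, gave 10.51, 10.61 and 10.59 in controls and 10.79, 10.88 and 10.81 in cKO and lay nearest below the threshold of all members (log2 fold change 0.26 ± 0.09, adjusted p = 0.0485). That call was lost when any 1 array was left out, with log2 fold changes of 0.23 to 0.28 and adjusted p-values of 0.0818 to 0.148. Odf4 (0.04, adjusted p = 0.797) and Odf3l2 (0.10, adjusted p = 0.665) were not called, and their groups overlapped. Odf2l, which encodes an Odf2-like centriole protein and not a dense fibre component, was the other lowered member, with 9.45, 9.34 and 9.43 in controls and 8.93, 9.06 and 9.20 in cKO (log2 fold change -0.34 ± 0.10, adjusted p = 0.0267). It lost its call without control replicate 1, control replicate 3, cKO replicate 1 or cKO replicate 2 (adjusted p from 0.0664 to 0.0936), and with each array centred on its median (-0.28, adjusted p = 0.0628).

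**Figure D3:**
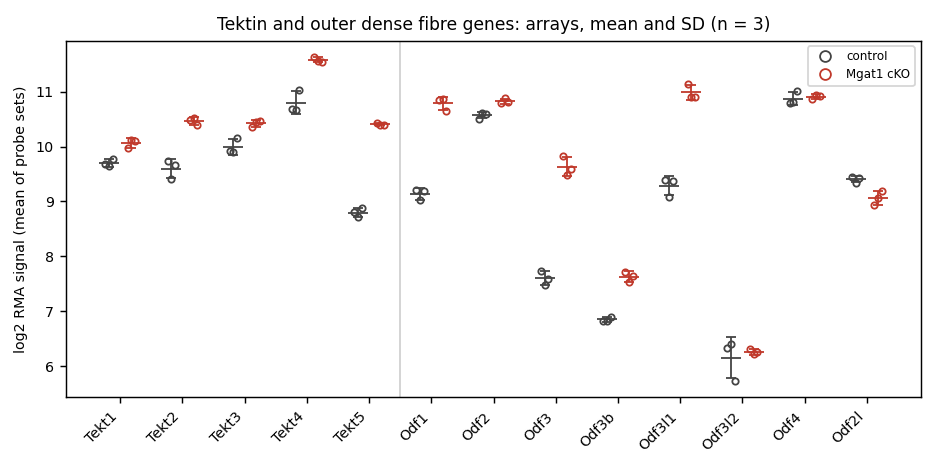
Log2 RMA signals of the 5 tektins and the 8 genes of the outer dense fibre and Odf3 families, with points for single mice and bars for mean and SD (n = 3). Control (grey) and Mgat1 cKO (red) points are separate for all 5 tektins and for Odf1, Odf2, Odf3, Odf3b and Odf3l1, are reversed in order for Odf2l and overlap for Odf3l2 and Odf4.

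The remaining members were Tcte1, a component of the nexin-dynein regulatory complex, and Tcte2, a testis transcript of the t complex, and neither was called. Tcte1 gave log2 signals of 10.76, 10.84 and 10.99 in controls and 11.08, 11.10 and 11.11 in cKO, without overlap (log2 fold change 0.23 ± 0.09, adjusted p = 0.0870). Tcte2 gave -0.13 (adjusted p = 0.310) with overlapping groups.

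Long genes allowed a look at how even each change was. Of the 1108 probe sets of the members, 56 were raised (5.05%) and 6 were lowered (0.542%), when probe sets were tested one by one with limma and adjusted over all 233753. Over the whole array, 4.98% were raised and 3.97% were lowered. With the dimmest 25% of probe sets left out, 74 of 952 were raised and 17 lowered (7.77% and 1.79%, against 7.77% and 9.25% of all), and with the dimmest 50% left out, 82 of 832 were raised and 53 lowered (9.86% and 6.37%, against 11.5% and 18.2%). The raised ones were unevenly spread, since Tekt2, Odf3, Odf3l1, Tekt4, Tekt5, Tctex1d1 and Odf1 held 12, 9, 5, 5, 4, 4 and 3 of them. In Dnahc8, 72 of 79 probe sets were lower in cKO and 1 was called lowered. Dnahc6, with no call as a gene, had 1 raised probe set of 63, with a log2 fold change of 2.55, while the median of its probe sets was 0.02.

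Probe sets that carry more than 1 gene symbol were left out of the gene values. The 11 probe sets shared by Dnahc7a, Dnahc7b and Dnahc7c had a mean log2 signal of 10.10 in controls and 9.83 in cKO, and in a fit over all probe sets 1 of them was raised and 2 were lowered. The 13 shared by Tcte3, a Tctex-type light chain, and 2 annotated copies had means of 12.72 and 12.53, and 0 were called, with a lowest adjusted p of 0.104. The 5 shared by Tcte2 and 2700054A10Rik had means of 8.55 and 7.86 and a median log2 fold change of -0.55, and 2 of them were lowered (lowest adjusted p = 0.0208).

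A further list of other axoneme genes, covering docking, ruler, assembly, doublet and central apparatus proteins, had 58 measured members, of which 17 were raised (29.3%) and 4 were lowered (6.90%), against 13.3% and 18.4% of all genes, with a median log2 fold change of 0.13. Their mean control signal was 9.96, and here too no share over genes of like signal was computed. The largest rises were those of Efhc2, Ccdc37 (Cfap100) and Ribc1. Efhc2, a protein of the doublet wall, gave log2 signals of 7.43, 7.29 and 7.58 in controls and 9.52, 9.19 and 9.14 in cKO (log2 fold change 1.85 ± 0.13, adjusted p = 6.14e-06). Ccdc37 gave 5.97, 5.72 and 5.59 in controls and 7.57, 7.63 and 7.33 in cKO (1.75 ± 0.13, adjusted p = 8.26e-06). Ribc1, also of the doublet wall, gave 8.39, 8.18 and 8.60 in controls and 10.04, 9.82 and 9.74 in cKO (1.48 ± 0.13, adjusted p = 3.27e-05). None of the 3 had overlapping groups. The largest falls were smaller in size. Dyx1c1 (Dnaaf4), a dynein arm assembly factor, gave 10.17, 10.12 and 10.22 in controls and 9.55, 9.69 and 9.91 in cKO (log2 fold change -0.45 ± 0.11, adjusted p = 0.0120). E030019B06Rik (Cfap46), a central apparatus protein, gave 10.19, 10.09 and 10.21 in controls and 9.69, 9.83 and 9.70 in cKO (-0.42 ± 0.09, adjusted p = 0.00739). Ccdc39, part of the ruler that spaces arms and spokes along the doublet, gave 11.50, 11.42 and 11.44 in controls and 10.94, 11.08 and 11.08 in cKO (-0.42 ± 0.09, adjusted p = 0.00731). Each cKO value of these genes was below every control. With the median of the probe sets as gene value, none of the 3 falls was called, at -0.40 for Dyx1c1 (adjusted p = 0.0690), -0.32 for Ccdc39 (0.0950) and -0.27 for E030019B06Rik (0.130). On the brightest probe set, Dyx1c1 (-0.30, adjusted p = 0.141) and Ccdc39 (-0.26, 0.146) were not called either. The fourth lowered gene was Ift88, an intraflagellar transport protein (-0.35, adjusted p = 0.0197).

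Lists of germ cell stages and of other testis cells were counted in the same comparison, to be read against the 13.3% raised and 18.4% lowered of all genes. The lists were chosen with earlier results of these data known, so their counts are not an independent test of stage. All 14 elongating spermatid genes were raised, with a median log2 fold change of 2.89 and list means of 7.34 to 7.57 in controls and 10.23 to 10.57 in cKO. Of 18 round spermatid genes, 17 were raised (median 1.68, with list means of 8.44 to 8.73 against 10.09 to 10.24). Pachytene spermatocyte genes were raised in 5 cases of 16 and lowered in 2 (median -0.05, 10.68 to 10.77 against 10.81 to 10.90). Early meiotic prophase genes were raised in 2 cases of 17 and lowered in 8 (median -0.34, 9.32 to 9.46 against 9.01 to 9.20), and spermatogonial genes were lowered in 3 cases of 14, or 21.4% (median -0.18, 7.34 to 7.51 against 7.17 to 7.35).

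Of 69 somatic marker genes of 5 cell types, 23 were lowered (33.3%) and 4 were raised (5.80%). The list means of Sertoli cell genes were 8.11 to 8.23 in controls and 7.74 to 8.00 in cKO (7 of 19 lowered), of Leydig cell genes 8.00 to 8.45 and 7.06 to 8.12 (2 of 11, or 18.2%, lowered and 1 raised), of peritubular and stromal genes 7.96 to 8.23 and 7.40 to 7.78 (7 of 14 lowered), and of macrophage genes 7.62 to 8.00 and 6.97 to 7.60 (7 of 15 lowered, 1 raised). Endothelial genes gave 6.67 to 7.04 and 6.75 to 7.08 (2 of 10 raised). Housekeeping genes gave 9.32 to 9.46 and 9.02 to 9.18, and although all 11 had lower means in cKO, 1 was called lowered. Their median log2 fold change was -0.23, and for 5 of the 11 (45.5%) every cKO value lay below every control. The same held for 6 of the 12 dynein heavy chains (50%) and for 26.6% of all genes. Multiciliated cell markers gave 7.28 to 7.52 and 7.81 to 7.89 (4 of 12 raised), and transcription factors of ciliated cells 7.66 to 7.78 and 8.03 to 8.12 (4 of 10 raised, 1 lowered). Array signals have no zero, so none of these markers can be called absent, and the part of these lists in the changes of the tail genes was not tested.

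**Figure D4:**
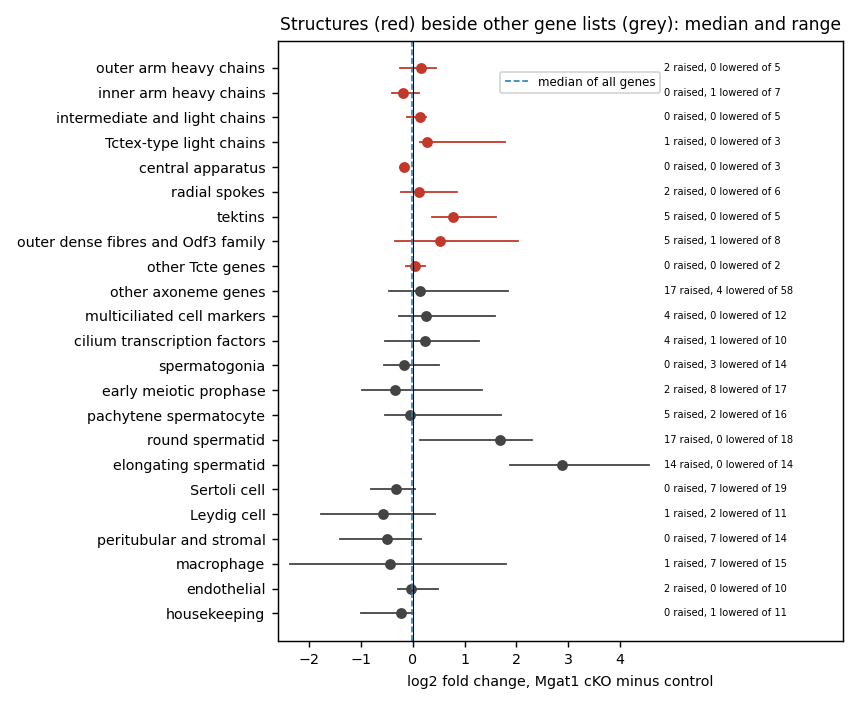
Median (dot) and range (line) of log2 fold changes, Mgat1 cKO minus control, for the structures (red) and for other gene lists (grey), with counts of called genes at the right. The elongating and round spermatid lists have medians of 2.89 and 1.68, the tektins 0.78 and the outer dense fibre and Odf3 families 0.52, and the heavy chain and central apparatus groups lie near the dashed median of all genes.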

How the data were processed

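The 6 arrays, 1 per mouse, came from 3 controls and 3 Mgat1 cKO animals, grouped by the sample labels. The authors made the deposited log2 values with the RMA method of Affymetrix Expression Console, a background correction followed by normalization of the arrays to a common distribution and a summary over probes. RMA compresses fold changes at low signal and hides any change in total RNA. The file held 269751 probe sets with values from 2.11 to 14.33 and array medians of 7.31 to 7.38. The sources used here give no version of Expression Console and no genome build, and the number of arrays limits the precision.

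Probe sets were named from the platform annotation, and those with 1 symbol were averaged per gene. Groups were compared with limma 3.58.1 (lmFit, eBayes) in R 4.3.3, with no covariates or filter on signal. Counts and figures were made with Python 3.11.15, pandas 2.3.3 and matplotlib 3.10.9. The scripts were tested on simulated data. A planned limma test of unequal change among the probe sets of a gene is not reported, because too many of its calls on simulated data were false. Members and lists were chosen with earlier results of these data known. Genes given with the value on every array were the up to 3 called members with the largest change in each structure, all outer arm heavy chains, lowered members, the members nearest the threshold and the 3 largest rises and falls of the other axoneme list. Values given for Spag6, Dnaic1 and Tcte1 and for single probe sets were chosen after they were seen. The alternatives were other scalings, filters, gene summaries, variance models, the methods' ANOVA, a replicate block and leaving out each array.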

Additional observations from a re-analysis of the deposited data

Results flagged for a closer look

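Probe sets shared by several symbols stood outside the gene values, and some were higher in cKO than in controls. Among the 11 shared by Dnahc7a, Dnahc7b and Dnahc7c, the highest log2 fold change was 1.33 and the lowest -1.11. Of the 2 shared by Tctex1d1 and BB031773, 1 was raised with a log2 fold change of 1.73, and the other gave -0.05.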

How the results depend on the processing

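The rises of Odf3, Odf3l1, Odf1, Tctex1d1, Tekt5, Tekt2 and Tekt4 kept their direction and their call under all 17 alternatives run for each, but not their size, with log2 fold changes of 0.40 to 2.25 for Tekt5 and 0.86 to 1.91 for Tctex1d1. Leaving out 1 array gave 12 to 14 raised members and 1 to 3 lowered, a median of 0.12 to 0.18, 8 to 15 raised and 3 to 5 lowered other axoneme genes with a median of 0.081 to 0.20, and 31 to 55 raised and 1 to 3 lowered probe sets. With each array centred on its median, 1 member was lowered, the median of members was 0.20 and of other axoneme genes 0.20, and 3 probe sets were lowered, as they were after a further quantile normalization. These scalings moved the median of all genes from -0.02 to 0.04 and -0.01. With the median of the probe sets as gene value, 1 member was lowered (median of members 0.18), and 11 other axoneme genes were raised and 1 lowered. With the brightest probe set, 8 members were raised and 1 lowered, and 9 other axoneme genes were raised and 1 lowered. Dnahc8 then had the opposite sign (0.087), and the cause was not tested. The methods' ANOVA, adjusted, raised 11 other axoneme genes. A variance model with trend lowered 9 members and 7 other axoneme genes. Asking for at least 1.5-fold left 9 raised and 0 lowered members, and 6 raised and 0 lowered other axoneme genes. Among the alternatives, shares of all genes are given only for the trend model and the brightest probe set. Shares of all probe sets are given only with the dimmest 25% or 50% left out. For the other counts of genes and of probe sets, a change in the members cannot be told from a change over the whole array. Leaving out the dimmest 25% or 50% of probe sets gave 17 or 53 lowered probe sets of the members. The lowered share of all probe sets rose as well, from 3.97% to 9.25% or 18.2%, and the cause was not tested. The replicate numbers did not pair the mice (same-number correlations of 0.03, 0.10 and -0.06), and with the replicate block 14 members were raised and 2 lowered, with 31 raised and 2 lowered probe sets. Chosen after seeing the data, leaving out the 7 members under the median control signal gave 12 raised and 2 lowered, and a fit that included shared probe sets gave 56 raised and 8 lowered probe sets.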
